A study of Mus musculus with 8 samples.

Results

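The S100A proteins are small calcium sensors of the EF-hand type, and 9 of their genes were followed in the hippocampus of young and aged mice: S100a1, S100a4, S100a6, S100a8, S100a9, S100a10, S100a11, S100a13 and S100a16. Probes were taken as members when their array accession mapped to 1 of these symbols, which gave 12 of the 39429 non-control probes on the array, and 9 of the 19751 genes that had a named probe. S100a1, S100a4 and S100a16 had more than 1 probe each and the other 6 genes had 1. The tissue was the whole hippocampus, dissected by hand from untreated wild-type C57BL/6J mice that aged in their home cages. The young group was 3 months old (3M, 4 samples) and the aged group 29 months old (29M, 4 samples), and the groups shared strain, genotype and lack of treatment. Each sample was hybridised with a single dye to 1 array. The 8 arrays were spread over 3 slides, with both ages present on every slide. Slide 1 held 1 array of 3M and 2 of 29M, slide 2 held 1 of each, and slide 3 held 2 of 3M and 1 of 29M. The labels number the samples but do not state whether each came from a separate mouse, so the p-values below measure the spread between these samples.

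S100A proteins work mostly as dimers. On binding calcium they open a hydrophobic surface that attaches to a partner inside the cell, such as an annexin, a cytoskeletal motor or an ion channel. Some members, above all the S100a8 and S100a9 pair, are also released and act outside the cell on pattern recognition receptors, which is why they are counted among the danger signals of inflammation. S100a10 is the exception in the family, because it no longer binds calcium and is held in its active shape permanently. In the brain, S100a6 is known from astrocytes, ependyma and precursor cells, S100a4 from astrocytes of fibre tracts and from blood-derived cells, and S100a8 and S100a9 mainly from neutrophils and monocytes.

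Of the S100A genes, S100a4 and S100a6 were up-regulated at 29 months and no member was down-regulated. The message of S100a4 was 2.46-fold higher by its brighter probe and that of S100a6 was 2.22-fold higher, and in both genes every 29M array lay above every 3M array. S100a8 and S100a9 had higher means at 29 months but their groups overlapped. The remaining 5 genes (S100a1, S100a10, S100a11, S100a13 and S100a16) had log2 changes between -0.05 and 0.21.

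A change was called when the limma fit across all 39408 tested probes gave a Benjamini-Hochberg adjusted p under 0.1 and the group means differed by 0.5 or more in log2 units (1.414-fold). By this rule 3 of the 12 S100A probes (2 of 9 genes) were called higher, against 1.25% of all tested probes and 1.58% of genes at 1 probe per gene. None of the 12 was called lower, against 0.815% of all probes. An unadjusted limma p under 0.05 was found for 4 of the 12, all of them with higher means at 29 months. The largest of these, 0.0196 for S100a8, ranked 3821 among the 39408 tested probes, so p-values of this size were common. Counts of unadjusted p under 0.05, here and for the lists below, are given without the share over all probes. The groups were separate, with all 29M arrays above all 3M arrays, for 3 of 12 probes, against 5.52% of all probes. The log2 change was above 0 for 11 of the 12 probes, with a median of 0.16, where the median over all tested probes was 0.00. All 12 probes were well above background on all 8 arrays, and none of their spots was saturated or marked as an outlier. Across the arrays, 76.2% to 85.0% of spots were well above background, and marker genes of neurons, astrocytes and oligodendrocytes (15 of 15 in each list) were well above background on all 8.

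**Figure D1:**
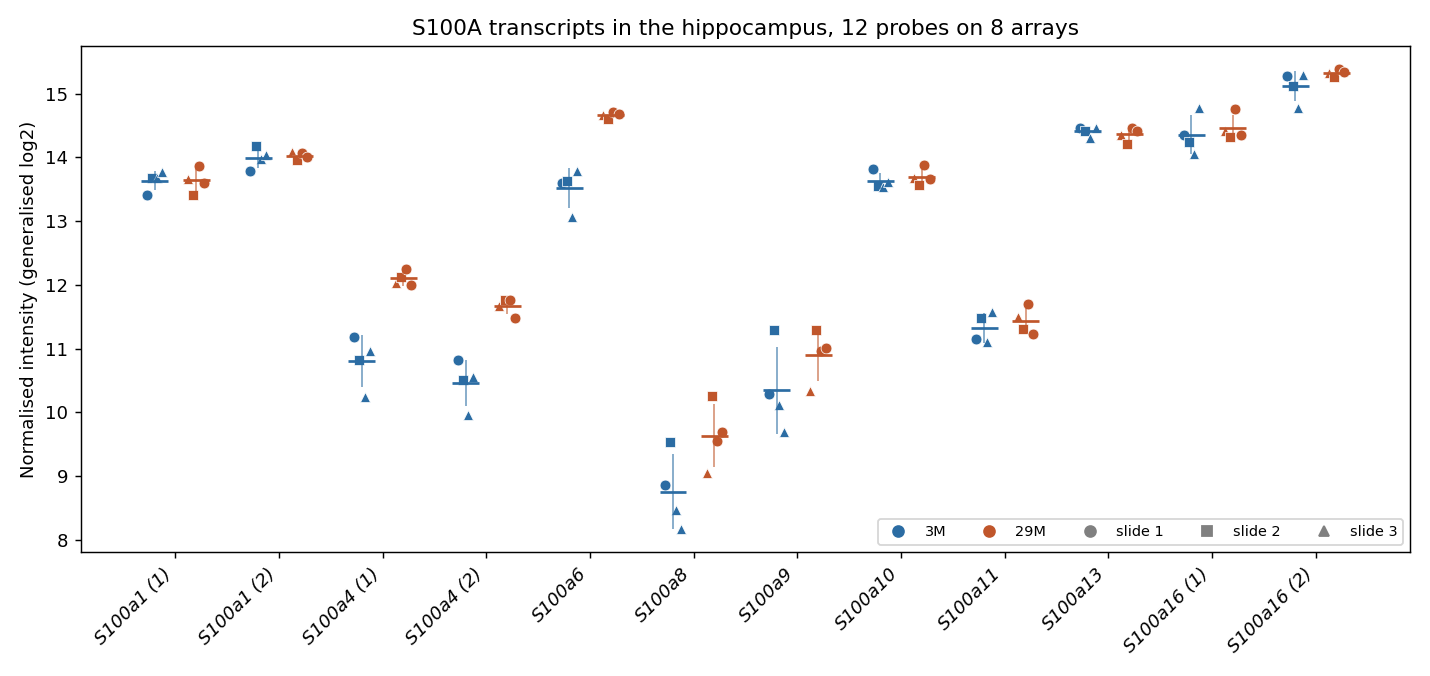
Normalised intensity (generalised log2, vertical axis) of the 12 S100A probes on each of the 8 arrays, with colour for age group and symbol shape for slide. For both S100a4 probes and for S100a6 the 4 arrays of the 29M group sit above the 4 of the 3M group, while the groups overlap for the other 9 probes.

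S100a4 encodes a calcium sensor that binds non-muscle myosin and is linked to cell motility. Its brighter probe (A_55_P1983448) had normalised intensities, on a generalised log2 scale, of 11.18, 10.83, 10.24 and 10.96 in 3M samples 1 to 4, and of 12.04, 12.12, 12.25 and 11.995 in 29M samples 1 to 4. The 29M values lay close to each other, whereas 3M sample 3 lay below the other 3M samples, and the lowest 29M array still exceeded the highest 3M array. The group means were 10.80 ± 0.40 (SD, n = 4) and 12.10 ± 0.11 (SD, n = 4), and the log2 change was 1.30 with a standard error of 0.18 and a limma adjusted p of 0.0118. The 95% confidence interval of the change ran from 0.89 to 1.70.

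The other S100a4 probe (A_55_P1983450) carried the same pattern at lower brightness, with 10.82, 10.50, 9.96 and 10.55 in the 3M samples and 11.67, 11.77, 11.76 and 11.49 in the 29M samples. The groups were again apart, with 3M sample 3 lowest. Its log2 change was 1.21 with a standard error of 0.17 and a limma adjusted p of 0.0111. Before normalisation, the median spot intensity of the brighter probe was 1870 scanner units in the 3M group and 4481 in the 29M group (medians over arrays), and for the other probe it was 1452 and 3330. Among all tested probes, the brighter S100a4 probe ranked 54 by size of increase.

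S100a6 encodes calcyclin, which binds several annexins and the calcyclin-binding protein of the ubiquitin pathway. Its probe (A_51_P281089) read 13.60, 13.63, 13.06 and 13.79 in 3M samples 1 to 4, and 14.66, 14.61, 14.72 and 14.68 in 29M samples 1 to 4. The aged samples were nearly identical to each other, with an SD of 0.05, against 0.32 among the young samples, of which 3M sample 3 was once more the lowest. The log2 change was 1.15 with a standard error of 0.14, a 95% confidence interval from 0.82 to 1.47 and a limma adjusted p of 0.00731. The medians of the spot intensity before normalisation were 12583 scanner units at 3 months and 26133 at 29 months.

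Leaving out 3M sample 3 lowered the changes to 1.11 and 1.05 for the S100a4 probes and to 0.996 for S100a6, and all 3 were still called (limma adjusted p from 0.00522 to 0.00929). Within slides 1, 2 and 3 the 29M values exceeded the 3M values by 0.94, 1.30 and 1.43 for the brighter S100a4 probe, and by 1.10, 0.98 and 1.24 for S100a6. The increase of both genes was thus present on each slide. The changes of S100a4 and S100a6 differed by 0.15, and the difference between their values on an array overlapped between the ages.

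**Figure D2:**
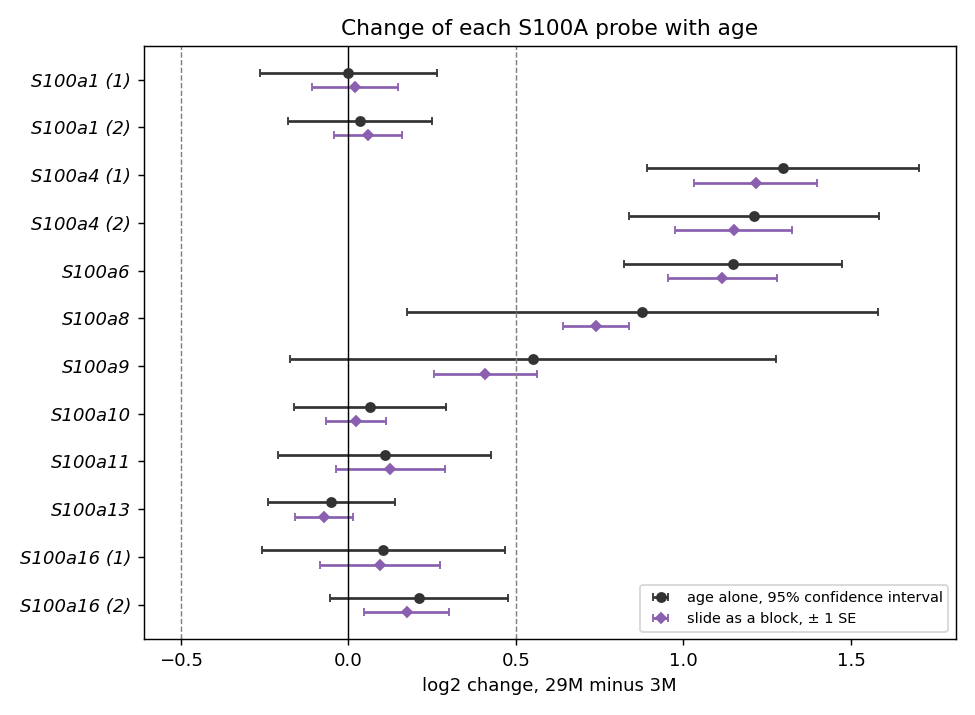
Change of each S100A probe in log2 units (29M minus 3M, horizontal axis), as circles with the 95% confidence interval from age alone and as diamonds with 1 standard error either side when slide was added as a block. The S100a4 and S100a6 estimates lie above 1 in both fits, and the S100a8 estimate is 0.88 in the first and 0.74 in the second.

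On chromosome 3, where the S100a genes lie in a cluster, S100a4 and S100a6 are separated by a single gene, S100a5. The order of genes in the RefSeq annotation of GRCm38.p6 runs from S100a1 through S100a13, S100a14, S100a16, S100a3, S100a2, S100a4, S100a5, S100a6, S100a7a and S100a8 to S100a9, with S100a11 and S100a10 farther along the chromosome. S100a5 read 9.62, 9.67, 9.48 and 9.78 in the 3M samples and 9.78, 9.51, 9.60 and 9.82 in the 29M samples. The groups of this middle gene overlapped and its log2 change was 0.04 with a standard error of 0.10 and a limma adjusted p of 0.882.

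The log2 change of S100a4 exceeded that of S100a5 by 1.26, and the change of S100a6 exceeded it by 1.11. This is a description without a test, because the pairs were chosen after the values had been seen. On the other side of S100a4, S100a3 had a change of 0.04 and S100a14, between S100a13 and S100a16, had one of -0.06. S100a2 had no probe that could be named, and S100a7a was not well above background on any array.

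**Figure D3:**
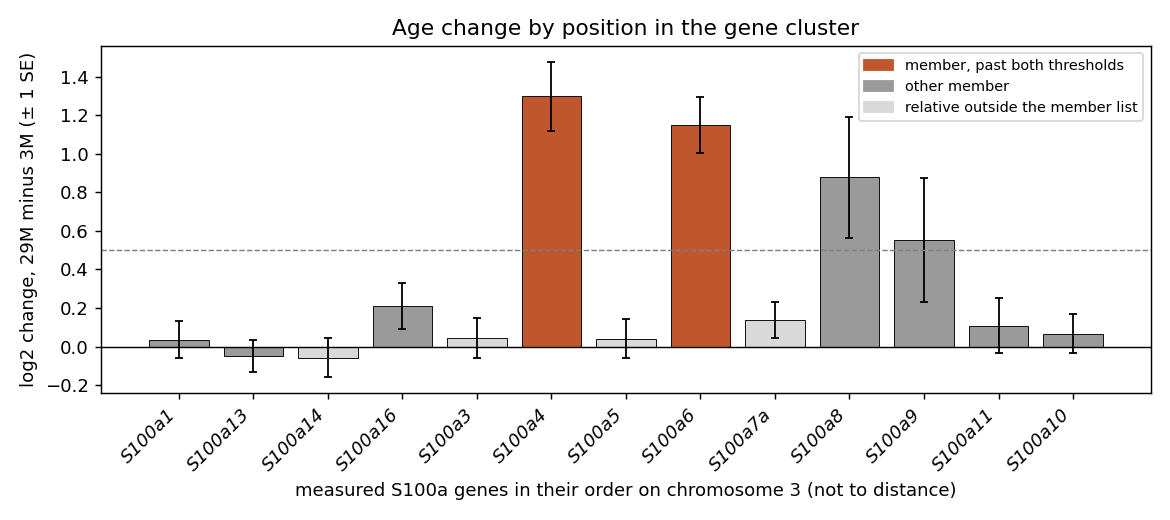
Log2 change with age (29M minus 3M, bars, with 1 standard error either side) of the measured S100a genes in their order along chromosome 3, which is not drawn to distance; the dashed line marks the threshold of 0.5. The bars of S100a4 (1.30) and S100a6 (1.15) stand on either side of that of S100a5 (0.04).

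The stretches of 250 bases before the transcription start of S100a4, S100a6, S100a8 and S100a9 are given here because these are the members with the largest changes and they lie close together in the cluster. They are RefSeq promoter windows of GRCm38.p6, written 5′ to 3′ along the gene, from chr3:90603520-90603769 (plus strand), chr3:90612644-90612893 (plus strand), chr3:90668821-90669070 (plus strand) and chr3:90695722-90695971 (minus strand). Capitals mark matches to the motifs searched, which are named after the sequences.
S100a4: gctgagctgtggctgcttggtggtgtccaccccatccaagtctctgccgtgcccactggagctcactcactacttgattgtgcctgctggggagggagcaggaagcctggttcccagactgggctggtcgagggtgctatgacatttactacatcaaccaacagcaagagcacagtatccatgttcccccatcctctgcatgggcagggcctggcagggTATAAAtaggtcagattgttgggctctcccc
S100a6: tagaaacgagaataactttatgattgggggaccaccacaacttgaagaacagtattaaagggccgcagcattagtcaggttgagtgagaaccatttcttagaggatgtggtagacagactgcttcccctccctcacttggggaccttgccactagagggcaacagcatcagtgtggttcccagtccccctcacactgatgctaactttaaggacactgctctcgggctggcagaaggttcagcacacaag
S100a8: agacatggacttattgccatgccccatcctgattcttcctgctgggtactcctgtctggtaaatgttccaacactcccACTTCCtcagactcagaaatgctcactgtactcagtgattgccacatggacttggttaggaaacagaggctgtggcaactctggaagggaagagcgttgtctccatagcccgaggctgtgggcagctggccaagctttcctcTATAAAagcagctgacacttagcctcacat
S100a9: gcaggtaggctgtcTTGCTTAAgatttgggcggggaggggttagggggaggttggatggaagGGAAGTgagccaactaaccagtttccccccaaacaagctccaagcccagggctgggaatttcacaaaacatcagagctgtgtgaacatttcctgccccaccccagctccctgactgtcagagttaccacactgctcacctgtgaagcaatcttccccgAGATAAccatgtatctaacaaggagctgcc
The search covered both strands, and the share of all 32851 windows of this length in the table that held a motif is given with it: TATAAA (the TATA box, 12.4%), TGANTCA (for AP-1, 6.75%), TTCNNNGAA (for STAT factors, 7.02%), GGAAGT (for SPI1, 19.7%), AGATAA (for GATA factors, 9.99%), TTGCNNAA (for C/EBP, 9.56%), the IRF motif (2.98%) and the NF-kappaB motif (7.25%). Of the members, 8 had a window and S100a10 did not. S100a4 held TATAAA from 31 to 26 bases before its start and S100a8 held it from 30 to 25 bases before its start, which made 2 of the 9 windows of the 8 genes. S100a8 also held ACTTCC, the reverse complement of the SPI1 motif, which matched in 4 of 9 windows (S100a1, S100a8, S100a9 and S100a11). S100a9 held in addition the GATA and C/EBP motifs, and S100a11 the GATA motif. None of the motifs was found in the S100a6 window, and none of the STAT, IRF and NF-kappaB motifs was found in any of the 9. The AP-1 motif matched in the window of S100a11 and in 1 of the 2 windows of S100a16. The matches describe these letters only, and none of the matched motifs overlapped another in the windows printed. S100a1 and S100a13 are transcribed away from each other, and their windows share the 104 bases at chr3:90514331-90514434.

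S100a8 and S100a9 form calprotectin, a heterodimer that is abundant in the cytosol of neutrophils and monocytes and binds Tlr4 and the receptor Ager once released. S100a8 (A_51_P256827) read 8.86, 9.53, 8.47 and 8.17 in 3M samples 1 to 4 and 9.05, 10.25, 9.54 and 9.69 in 29M samples 1 to 4. The groups overlapped, because 3M sample 2 was above 29M sample 1. The mean was 0.88 higher on the log2 scale at 29 months, with a standard error of 0.31 and a 95% confidence interval from 0.18 to 1.58. The limma adjusted p was 0.202, so S100a8 was not called.

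S100a9 (A_55_P1998471) read 10.28, 11.30, 10.12 and 9.68 in the 3M samples and 10.34, 11.29, 10.96 and 11.02 in the 29M samples. Sample 2 was the highest of both groups, and the groups overlapped. The log2 change was 0.55 with a standard error of 0.32, a 95% confidence interval from -0.17 to 1.28 and a limma adjusted p of 0.428. For both genes the highest array of each age, 3M sample 2 and 29M sample 2, lay on the same slide.

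Comparing arrays of the same slide gave S100a8 differences of 0.76, 0.72 and 0.73 on slides 1, 2 and 3. These 3 values were close together although the groups overlapped when the slides were mixed. Each of them rested on a single array of 1 or both ages. With slide as a block, the S100a8 change was 0.74 with a standard error of 0.10 and a limma adjusted p of 0.0334, so it was called in that fit. This was the 1 setting of 19 in which S100a8 passed. S100a9 gave 0.70, -0.01 and 0.43 on the same slides, and 0.41 with slide as a block (limma adjusted p = 0.238). With slide as a random block the S100a8 adjusted p was 0.183, and the correlation within slides, estimated over all probes, was 0.05.

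**Figure D4:**
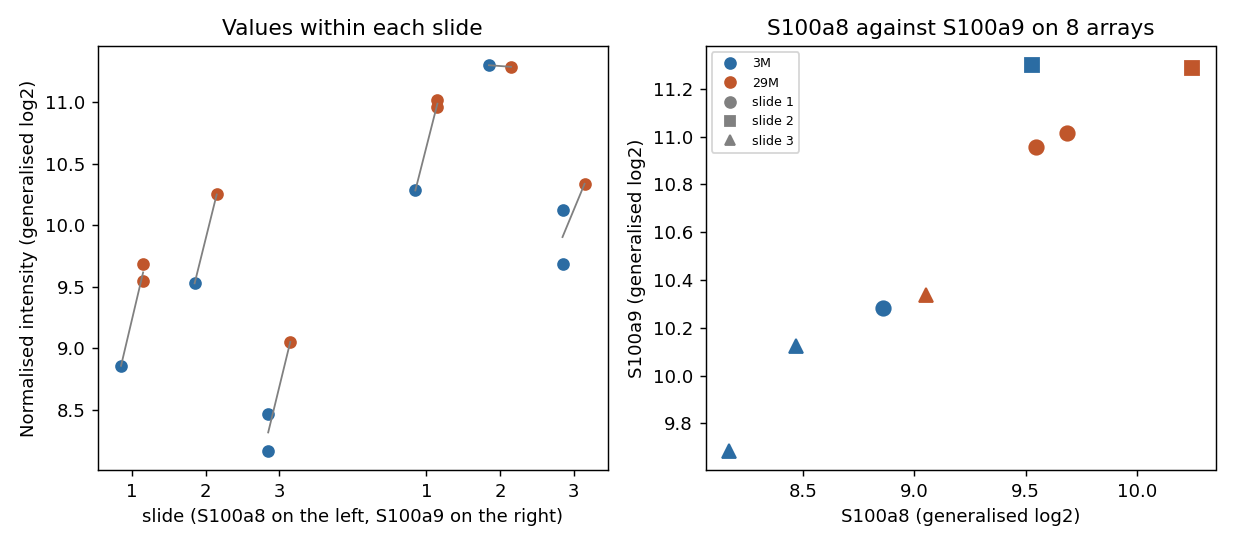
Left, normalised intensity (generalised log2) of S100a8 and S100a9 by slide, coloured by age group; right, S100a9 against S100a8 on the 8 arrays (both generalised log2). Within each slide the S100a8 mean of the 29M arrays is 0.72 to 0.76 above that of the 3M arrays, and the 2 genes follow each other across arrays.

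Across the 8 arrays S100a8 and S100a9 had a Pearson r of 0.95, and 0.96 after the group means were removed, so that arrays with more of one message had more of the other within each age as well. Without 3M sample 3 the latter was 0.96 over 7 arrays. The S100a8 level relative to S100a9 was still 0.33 higher at 29 months, with all 4 aged arrays above all 4 young ones, a pair chosen after its values had been seen and given without a test.

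Among the marker genes of neutrophils, 19 of 20 were measured and none was called in either direction by limma, while 3 had an unadjusted p under 0.05. The log2 change was above 0 for 14 of the 19, with a median of 0.24. The mean level over the list ran from 7.67 to 8.02 in the 3M samples and from 7.94 to 8.15 in the 29M samples. The summed level, on the log2 scale, ran from 17.50 to 17.54 at 3 months and from 17.33 to 17.45 at 29 months, and was carried by the Csf3r probe. Without Csf3r it ran from 13.36 to 13.91 and from 13.49 to 13.66. It was then carried mostly by the Elane probe, which had a log2 change of -0.27. Neither sum therefore describes the list as a whole.

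Of the defining neutrophil markers, Ngp was well above background on 1 array of each group, Camp was 0.46 higher in log2 units at 29 months (limma adjusted p = 0.140) and Ltf 0.39 higher (limma adjusted p = 0.526). After the group means were removed, S100a8 had an r of 0.87 with the mean of the list over 8 arrays. The r of S100a8 was above 0.5 with 6 of the 19 genes, among them Ngp (0.97), Camp (0.90) and Ltf (0.87). It was lowest with Prtn3 (-0.48), Stfa1 (-0.34) and Elane (-0.02), so S100a8 did not follow the whole list. S100a9 had an r of 0.92 with the same list mean. The part of neutrophils, in the tissue or in blood left in its vessels, in the S100a8 and S100a9 values was not tested. In a homogenised tissue, a change in the number of cells of a type and a change in RNA per cell cannot be told apart, and this holds for every gene given here.

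Marker lists of other cells that can carry S100a4 or S100a6 gave the following values. Over all genes at 1 probe per gene, 1.58% were called higher, which is the share to set beside the counts of each list. For microglia, none of the defining genes was called: Cx3cr1 was 0.30 higher in log2 units, P2ry12 0.36 and P2ry13 0.49 (limma adjusted p from 0.0598 to 0.355). Of the 20 microglial genes 4 were called higher (C1qa, C1qb, Trem2 and Ctss, named after their values were seen) and 17 had log2 changes above 0, with a median of 0.32. The summed level ran from 18.69 to 18.83 at 3 months and from 18.94 to 19.02 at 29 months, so the ages were apart by this measure. The brightest probes in this sum were those of Siglech and Itgam, with changes of 0.16 and -0.05, neither of them called. By the mean level over the list the ages overlapped, from 12.94 to 13.15 at 3 months and from 13.11 to 13.47 at 29 months. After the group means were removed, the r with the mean of the list over 8 arrays was 0.64 for S100a4 and 0.39 for S100a6. Without 3M sample 3 it was 0.63 for S100a4 and -0.09 for S100a6.

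For T and B cells, 3 of 10 measured genes were called higher (Cd3d, Cd8a and Cd2, of which the latter pair was named after its values were seen), 7 had log2 changes above 0, and the summed levels overlapped, from 14.35 to 14.48 and from 14.26 to 14.60. This sum was carried by the Cd4 probe, which had a change of -0.02. The mean level over the list overlapped too, from 7.56 to 7.89 and from 7.84 to 8.01. Of the defining T cell genes, Cd3d was 0.96 higher, Cd3e had a change of 0.07, and Cd3g was well above background on no young and 1 aged array. The r without group means was 0.80 with S100a4 and 0.37 with S100a6, and was not recomputed without 3M sample 3. For monocytes and macrophages outside the parenchyma, 1 of 11 was called (Cd209f, named on the same basis), 9 had changes above 0, and the summed levels overlapped, from 12.83 to 13.17 and from 12.95 to 13.47. Of its defining genes, Ccr2 had a change of 0.25 and Plac8 one of -0.22, and neither was called. The r without group means was 0.66 with S100a4 and 0.17 with S100a6, again not recomputed without that sample.

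For astrocytes, 7 of 15 genes had log2 changes above 0, with a median of -0.05, and 1 was called, Gfap, which was 0.71 higher in log2 units (limma adjusted p = 0.0235). The other defining genes were not called, with changes of 0.27 for Aqp4 and -0.07 for Aldh1l1. The summed levels overlapped, from 19.07 to 19.34 at 3 months and from 19.12 to 19.25 at 29 months. The brightest probe in this sum was that of Aldoc, with a change of -0.19. The r without group means was -0.72 with S100a4 and -0.61 with S100a6, and was not recomputed without 3M sample 3. For meninges and fibroblasts, 11 of 15 genes had changes above 0, none was called by limma and 4 had an unadjusted p under 0.05. The defining genes Dcn, Lum and Col1a1 had changes of 0.20, 0.32 and -0.58, and the summed levels overlapped, from 16.48 to 16.87 and from 16.38 to 17.30. The part of any of these cells in the S100a4 and S100a6 increase was not tested.

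Of the 12 marker lists, S100a6 had its highest r after the group means were removed with ependyma (0.98 over 8 arrays) and choroid plexus (0.94), followed by oligodendrocytes (0.78), and its lowest with astrocytes (-0.61). Both lists were lowest in 3M sample 3, at 10.89 for ependyma against 11.73 to 12.17 in the other young samples, and at 12.56 for choroid plexus against 13.30 to 13.85. Without that sample the r of S100a6 was 0.81 with ependyma and 0.70 with choroid plexus over 7 arrays. S100a4 had an r of 0.78 with ependyma over 8 arrays and -0.45 without that sample. For S100a16 these values were 0.87 and 0.04. Neither list had a gene called with age by limma or a gene with an unadjusted p under 0.05, and the median change was -0.07 for ependyma and 0.15 for choroid plexus. The defining ependymal genes Foxj1, Ccdc153 and Tmem212 had changes of 0.11, -0.07 and -0.18, and those of choroid plexus, Ttr, Kl and Folr1, changes of -0.01, 0.01 and 0.24. The part of ependyma or choroid plexus in the S100a6 values was not tested.

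3M sample 3 was the lowest young array for 6 of the 9 members, by the brighter probe of each (S100a4, S100a6, S100a10, S100a11, S100a13 and S100a16). The r of S100a4 with S100a6 after the group means were removed was 0.85 over 8 arrays and -0.09 without that sample over 7. Their likeness within ages therefore rested on a single array, in contrast to that of S100a8 with S100a9.

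The genes most like each member were found by the Pearson r over the 8 arrays among 16453 genes that were well above background in a group; the points share arrays, slides and the age difference. For S100a4 these were Vim, an intermediate filament gene (r = 0.997), C3 of the complement system (0.995) and the chemokine Cxcl13 (0.992). Vim read 14.80, 14.47, 13.95 and 14.52 in the 3M samples and 15.39, 15.49, 15.48 and 15.31 in the 29M samples, so 3M sample 3 was lowest for Vim as for S100a4. For S100a6 they were the membrane protease St14 (0.993), Fbxl8 (0.991) and again C3 (0.989). 3M sample 3 was lowest for these too, for C3 at 9.08 against 10.47 to 10.73 in the other young samples. It was 4.99 against 5.75 to 6.16 for Cxcl13, 7.29 against 7.64 to 7.77 for St14, and 9.03 against 9.15 to 9.16 for Fbxl8. The r of S100a4 and S100a6 with these genes were not recomputed without that sample. The nearest to S100a8 were S100a9 (0.947), the neutrophil granule gene Camp (0.944) and Pcsk7 (0.942). The nearest to S100a9 were Retnlg (0.958), S100a8 (0.947) and Acbd4 (0.943). Thus a gene of the neutrophil list stood among the 3 nearest of each calprotectin gene.

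The tetraspanins Cd82 (r = 0.996) and Cd151 (0.987) were with Epha1 (0.988) the genes most like S100a16. Each of them, like S100a16, was lowest among the young in 3M sample 3, and these r were not recomputed without it. The nearest to S100a1 were Cdh3, Vasp and Jund (0.911 to 0.926), to S100a11 Cdc42ep5, Tmtc2 and Myo7a (0.952 to 0.958), to S100a13 Prb1, Ttc38 and Ssu72 (0.963 to 0.970), and to S100a10 Itprip, Gpr137b and Chit1 (0.969 to 0.974).

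S100a10 pairs with Anxa2 in a complex that carries channels and receptors to the membrane. Its probe (A_51_P342871) ran from 13.54 to 13.82 in the 3M samples and from 13.56 to 13.88 in the 29M samples, so the groups covered almost the same range. The log2 change was 0.07 with a standard error of 0.10, and its 95% confidence interval, from -0.16 to 0.29, held no change as large as the threshold of 0.5. S100a11, which binds Anxa1, ran from 11.10 to 11.57 and from 11.23 to 11.69, with a change of 0.11 and an interval from -0.21 to 0.43. The limma adjusted p was 0.788 for S100a10 and 0.747 for S100a11.

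S100a13 takes part in the release of Fgf1 and Il1a without a signal peptide. It ran from 14.31 to 14.46 at 3 months and from 14.21 to 14.46 at 29 months, and its change of -0.05 (95% confidence interval from -0.24 to 0.14) was the only one of the 12 below 0, though it turned positive with scaling to the 75th percentile (0.021) or from processed signals (0.036). S100a1, which acts on calcium release channels and pumps of muscle, had changes of 0.00 and 0.04 by its probes, of no stable sign, with intervals from -0.26 to 0.27 and from -0.18 to 0.25. S100a16, a member found in astrocytes and other tissues, ran from 14.78 to 15.29 in the young and from 15.26 to 15.39 in the aged samples by its brighter probe. Its change was 0.21 with an interval from -0.05 to 0.48, and 0.11 by the other probe, whose interval was from -0.26 to 0.47. The intervals of these 5 genes lay below 0.5, that is, below a 1.414-fold change, for all 7 of their probes.

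Outside the 9 members, 13 of 15 relatives were measured, 7 of them with log2 changes above 0, and none was called by limma, while 2 had an unadjusted p under 0.05. S100b, the abundant astrocyte member, read 15.73, 15.66, 15.46 and 15.75 in the 3M samples and 15.95, 16.02, 16.03 and 15.92 in the 29M samples. The groups were separate, but the change of 0.33 was below the threshold and the limma adjusted p was 0.109, so S100b was not called. The median change of the relatives was 0.03, where that of all genes at 1 probe each was 0.01.

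Of the list of receptors of secreted S100A proteins, with their co-receptors and the adaptor Myd88, 12 of 12 genes were measured. None was called lower, and 1 was called higher, against 1.58% of all genes at 1 probe per gene. It was Cd33, a sialic acid-binding lectin of myeloid cells, which read 9.13, 9.02, 8.86 and 8.85 in the 3M samples and 9.56, 9.64, 9.92 and 10.05 in the 29M samples. The groups were apart, and the log2 change was 0.83 with a standard error of 0.13 and a limma adjusted p of 0.0177.

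Tlr4 ran from 7.81 to 8.08 at 3 months and from 8.17 to 8.56 at 29 months, and its change of 0.40 had a limma adjusted p of 0.124. Ager, the receptor for advanced glycation end products, was well above background on 2 arrays of each group and had a change of -0.15 (limma adjusted p = 0.804). The median change of these 12 genes was -0.01.

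Of the partners inside the cell, all 34 were measured, 2 were called higher and none lower, and the median change was 0.02. Over all genes at 1 probe per gene, 1.58% were called higher. Il1a, the cytokine that leaves cells with S100a13, read 5.99, 6.26, 6.09 and 6.12 in the 3M samples and 7.39, 7.37, 6.65 and 6.97 in the 29M samples. The groups were separate and the change was 0.98 with a standard error of 0.16 and a limma adjusted p of 0.0243, although its probe was close to background, being well above it on 3 of the 4 young arrays. Il1a was called in all 19 alternative settings, with changes from 0.77 to 1.60. Anxa4 had a change of 0.52 with a standard error of 0.12 and a limma adjusted p of 0.0723, and was called in 7 of 19 alternative settings.

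Anxa2, the partner of S100a10, ran from 13.05 to 13.55 at 3 months and from 13.58 to 14.04 at 29 months. The groups were separate, and the change of 0.44 (limma adjusted p = 0.140) did not pass. The probes of Ahnak, the large scaffold that the S100a10 complex binds, disagreed: the brightest gave 0.28, and the other 3 gave -0.74, 0.64 and -0.05, of which only that of 0.64 was called (limma adjusted p = 0.0493).

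**Figure D5:**
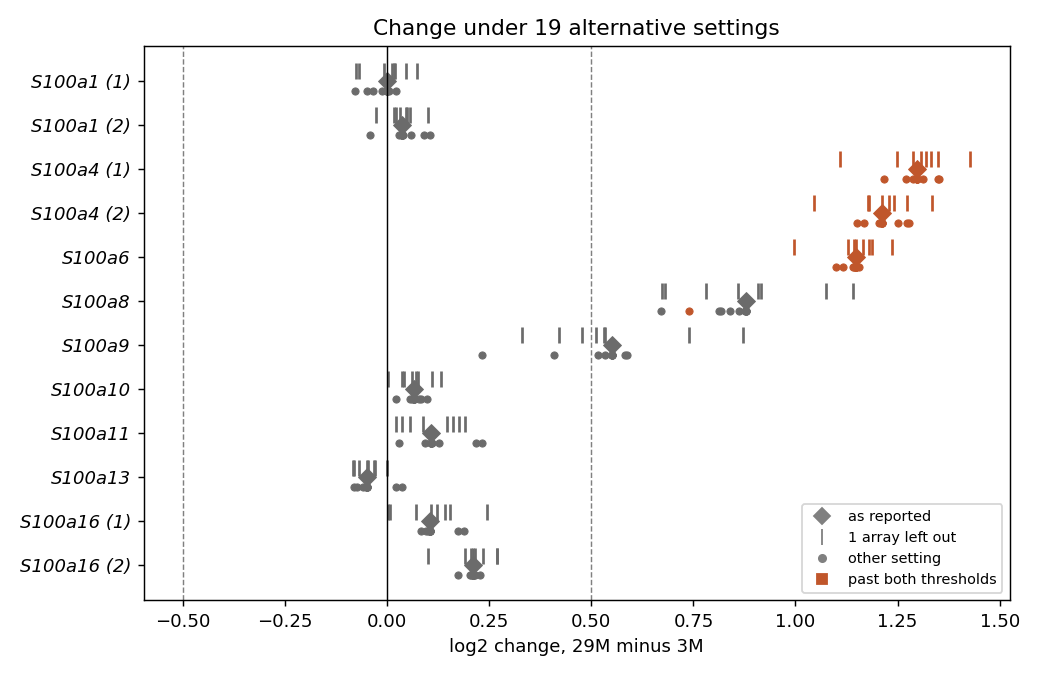
Log2 change (29M minus 3M, horizontal axis) of each S100A probe under 19 alternative settings, with diamonds for the values reported, ticks for 1 array left out, dots for other settings and orange for settings past both thresholds. Both S100a4 probes (1.05 to 1.43 between them) and S100a6 (0.996 to 1.24) are past the thresholds in all 19, S100a8 in 1 and the other probes in none.

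Over these 19 settings the brighter S100a4 probe ran from 1.11 to 1.43, the other from 1.05 to 1.33 and S100a6 from 0.996 to 1.24. S100a8 ran from 0.67 to 1.14 and S100a9 from 0.23 to 0.87, all above 0.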

How the data were processed

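Hippocampal RNA of 4 samples from mice of 3 months and 4 from mice of 29 months was labelled with Cy3 and hybridised to 8 one-colour Agilent whole mouse genome arrays. Per the file headers, the authors extracted the deposited spot intensities, in linear scanner units, with Feature Extraction 10.7.3.1. The paper's methods name an earlier version of that software. The deposited intensities were not scaled between arrays. The median spot intensity was used, because the files given here hold no mean intensity, with local background not subtracted. A further deposited table of the series was not used as expression: in all 8 of its columns the values equalled the mean local background intensity of an array (tolerance 0.001), in 7 columns that of another sample than the label names. No column of comparisons by the authors was used.

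Following the study's methods, intensities were brought to a common generalised log2 scale by a variance stabilising model, written for this purpose (least trimmed squares quantile 0.9, 7 iterations), and age was tested with limma 3.58.1 in R 4.3.3 (lmFit, eBayes) on the 39408 probes that had at least 3 usable arrays per group. Outlier spots were left out and spots of a probe averaged. P-values were adjusted by the Benjamini-Hochberg procedure over all tested probes. The procedure was run on simulated data in which 200 probes were changed. It recovered 100% of them, and 9.5% of its calls were false. The planted changes were larger than those of the S100A probes, and the simulated spread was capped below that of S100a8 and S100a9. The recovery of changes of the size reported here was therefore not tested. Probes were named through their accession in the RefSeq table of GRCm38.p6, which named 26055 probes. The array design follows another build, so no gene positions are given beyond the promoter windows of that table. Where a gene had several probes, the one with the highest mean over the 8 arrays stood for it in lists, and a list's level is the mean of these or the log2 of their sum. Brightness was used to choose between probes of a gene and to sum lists, and not to compare the levels of genes.

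Named in the text were all members with every probe, from the lists of relatives, receptors and partners every called gene with S100b, Ager, Tlr4, Anxa2 and Ahnak, the first 3 markers of a list set beside a member, and for each member the 3 genes with the highest r. For the lists given with their summed levels, called markers were named as well, and for some of them the brightest probes of the sum. The members and lists were chosen with earlier results of these data known. The precision is limited by the 4 arrays per group.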

Additional observations from a re-analysis of the deposited data

Results flagged for a closer look

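None of the 12 S100A probes had an array far from the others of its group. Of 54 probe and list groups of 4 arrays that were examined, 4 had 1 array set apart, where chance gives about 1 in 20, or 2.7. The gap is given as a share of the whole range of the group. The mean level of the S100 relatives in the 3M group had a gap of 0.916, with 3M sample 1 at 7.82 and the others from 7.56 to 7.58. The mean level of the receptors in the 29M group had a gap of 0.902, with 29M sample 4 at 9.25 and the others from 9.32 to 9.33. The list of monocytes and macrophages outside the parenchyma in the 3M group had a gap of 0.869, with 3M sample 1 at 8.83 and the others from 8.43 to 8.48. The microglia list in the 29M group had a gap of 0.868, with 29M sample 4 at 13.11 and the others from 13.42 to 13.47.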

How the results depend on the processing

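The call of 3 S100A probes higher and 0 lower was the same under each of the 19 alternatives, except that slide as a fixed block added S100a8, which made 4. Over the 8 fits that left out 1 array the brighter S100a4 probe ran from 1.11 to 1.43 and S100a6 from 0.996 to 1.24, and the limma adjusted p over all alternatives ran from 0.00169 to 0.0655 for the former and from 0.00217 to 0.0498 for the latter. Of the changes of single probes under the alternatives, 216 kept direction and side of the threshold, 1 passed it (S100a8) and 11 changed sign, all of changes close to 0. For S100a1 (A_55_P1979645, reported as 0.00) the change was -0.050 with scaling to the 75th percentile, -0.011 with normexp and quantile normalisation, -0.035 with processed signals and -0.080 with array weights, and it ran from -0.077 to 0.074 with 1 array left out. For the other S100a1 probe it was -0.043 with array weights and ran from -0.027 to 0.099 with 1 array left out. For S100a13 it was 0.021 with the 75th percentile and 0.036 with processed signals. The cause was not tested. Among the partners 2 genes were called higher, and 1 with the 75th percentile and in 6 of the 8 fits with 1 array left out (without 3M sample 2, 3 or 4 or 29M sample 1, 2 or 3). Without 3M sample 1 it was 3, and Anxa4 was not among them. Among the receptors 1 was called, and 2 without 3M sample 1.

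The replicate numbers were not treated as pairs in the main fit. Same-numbered samples deviated from their group means with r of -0.24, 0.21, -0.23 and 0.07. Differently numbered samples were not compared in this way, so these values cannot decide whether the samples were paired. With the replicate number as a block the S100A call was again 3 probes, Cd33 was not called, and over all probes 266 were called higher and 145 lower, against 491 and 321 without it. Counts over all probes also moved by more than 1.5 times with array weights (850 and 682), without 3M sample 1 (844 and 624), without 3M sample 2 (268 and 131), without 29M sample 1 (269 and 139) and without 29M sample 2 (282 and 166). The higher calls alone did so without 3M sample 3 (309), the lower calls alone without 29M sample 4 (157), and with an adjusted p under 0.05 the counts were 308 and 179. The bounds that 4 arrays per group allow are the confidence intervals of the report.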
